A study of Mus musculus with 13 samples.

Results

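The regions described here were called for LSD1 whether or not the cells had seen IL3, lay at an end of a protein-coding gene, and were not in the pooled region lists of the other 2 proteins of the experiment. They were chosen from the pooled LSD1 region list of cells with IL3. A region was kept if it shared at least 1 bp with a region of the pooled LSD1 list without IL3, shared no base with any pooled STAT5A or HDAC3 region of either condition, and had its centre within 1 kb of either bound of a protein-coding gene in mm10 coordinates. The rule kept 1603 of 17087 regions on assembled chromosomes. Of the 17087 regions, 8935 were called in both conditions, 4027 of these had neither STAT5A nor HDAC3, and 1603 of these 4027 (39.8%, 95% Wilson interval 38.3 to 41.3) lay at a gene end. The gene-end share was 40.8% over all 17087 regions and 43.8% over those called with IL3 only. It was 36.7% over regions called in both conditions with STAT5A or HDAC3, so a share near 40.8% is not particular to this class. The 1603 regions are called constant LSD1-only regions below.

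The cells were Ba/F3, a mouse pro-B cell line that needs interleukin 3 (IL3) to grow and is kept in medium with 1 ng/mL IL3. In the condition with IL3, the cells went 6 h without the cytokine before it was put back at 10 ng/mL for 30 min. In the condition without IL3 they went 6 h without it and got none. So both conditions share the starvation, and neither is the routine growing culture. Chromatin immunoprecipitation with sequencing was deposited for STAT5A, LSD1 and HDAC3, with 2 replicates for each protein and condition (12 libraries) and a pooled list for each of the 6 groups. The region lists hold no expression values, so the cell line was not checked against its markers here, and the number of cells or alleles bound cannot be read from a region's score.

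LSD1 (gene Kdm1a) is a histone demethylase that takes methyl groups off mono- and dimethylated H3K4, a mark of active and poised regulatory DNA. It works in complexes such as CoREST, which also hold histone deacetylases, and it is best known as a corepressor in blood cells, where the repressors GFI1 and GFI1B bring it to DNA. LSD1 has also been mapped at the promoters of many active genes. STAT5A is a DNA-binding protein switched on by JAK kinases at the IL3 receptor, and HDAC3 is the deacetylase of the NCoR complex.

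The letters of the regions could be read where a region lay whole inside the 300 bases that RefSeq's promoter table (GRCm38.p6, mm10 coordinates) gives for a gene, from 250 bases before the start to 50 after it. This held for 325 of the 1603 regions (20.3%), each of the list's fixed width. The highest-scoring region of all, at Gadd45a, ran past its window, and 149 of its bases are shown. Tomt is shown as the highest-scoring region read whole, and Gtf3c1, which encodes a subunit of an RNA polymerase III factor, for its cAMP response element (CRE, TGACGTCA), which is in capitals. Each is written on the strand of its gene.
Gadd45a, chr6:67037358-67037506, minus strand: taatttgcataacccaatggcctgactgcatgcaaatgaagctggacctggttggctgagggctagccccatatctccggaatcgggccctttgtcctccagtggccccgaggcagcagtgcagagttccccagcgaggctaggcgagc
Tomt, chr7:101906323-101906493, minus strand: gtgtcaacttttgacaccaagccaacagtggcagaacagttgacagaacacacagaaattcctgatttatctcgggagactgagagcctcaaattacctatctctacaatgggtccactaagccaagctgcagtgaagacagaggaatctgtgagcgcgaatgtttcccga
Gtf3c1, chr7:125707681-125707851, minus strand: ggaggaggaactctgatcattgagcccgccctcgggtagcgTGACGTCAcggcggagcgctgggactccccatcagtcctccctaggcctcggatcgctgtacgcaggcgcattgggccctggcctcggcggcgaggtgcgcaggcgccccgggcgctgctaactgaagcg

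A second set is shown because its regions share letters that come back in the results below. Capitals mark GTTGCNNNG or its reverse complement, part of the X-box that transcription factors of the RFX family bind.
Pick1, chr15:79229032-79229202, plus strand: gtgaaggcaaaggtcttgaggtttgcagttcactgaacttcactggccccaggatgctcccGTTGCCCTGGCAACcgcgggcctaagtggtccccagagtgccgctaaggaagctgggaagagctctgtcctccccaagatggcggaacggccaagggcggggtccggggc
Tmx4, chr2:134644099-134644269, minus strand: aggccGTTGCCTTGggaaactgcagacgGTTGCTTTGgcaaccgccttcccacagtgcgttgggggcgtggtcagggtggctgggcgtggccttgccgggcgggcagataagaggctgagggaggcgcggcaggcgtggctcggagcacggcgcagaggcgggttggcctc
Zfp523, chr17:28177055-28177225, plus strand: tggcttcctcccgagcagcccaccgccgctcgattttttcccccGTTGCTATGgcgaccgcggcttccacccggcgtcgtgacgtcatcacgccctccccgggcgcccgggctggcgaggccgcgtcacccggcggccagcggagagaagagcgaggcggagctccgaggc
Eif2b2, chr12:85219247-85219417, plus strand: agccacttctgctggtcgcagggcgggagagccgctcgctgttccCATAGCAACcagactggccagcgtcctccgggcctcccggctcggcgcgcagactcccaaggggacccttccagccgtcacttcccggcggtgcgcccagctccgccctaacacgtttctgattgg
Hsph1, chr5:149636310-149636480, minus strand: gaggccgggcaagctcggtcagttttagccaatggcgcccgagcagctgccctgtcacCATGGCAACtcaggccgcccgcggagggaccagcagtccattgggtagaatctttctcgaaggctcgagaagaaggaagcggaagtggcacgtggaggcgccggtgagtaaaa

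The lists give each region a score, which is the authors' own and which the labels and files do not define. In each list low scores were whole multiples of a fixed step (to within 0.0559), so a score of 16.7 in the pooled list with IL3 is 13.0 steps. If 1 step is 1 read, the LSD1 libraries with IL3 were 6.11 (replicate 1) and 5.68 (replicate 2) times as deep as replicate 1 without IL3, and replicate 2 without IL3 was 4.96 times as deep. The 4 LSD1 libraries held 6476 and 11567 regions with IL3 and 1005 and 15783 without. LSD1 replicate 1 without IL3 stands apart by its short list, and scores are compared only within a list.

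How firmly single libraries bore out the word constant differed. Of the 1603 regions, 31.6% were called in replicate 1 and 64.1% in replicate 2 with IL3, where 33.1% and 57.2% of all 17087 pooled LSD1 regions were called. Without IL3 the shares were 4.12% in replicate 1 and 77.0% in replicate 2, beside 4.52% and 48.8% of all pooled regions. The rule asked for a pooled call in both conditions, so the high share in replicate 2 without IL3 is not a finding. Counted per region, 98 (6.11%) were in no LSD1 replicate list, 483 in 1, 740 in 2, 258 in 3 and 24 (1.50%) in all 4. Of all 17087 pooled regions 22.3% were in none, 32.3% in 1, 27.9% in 2, 14.7% in 3 and 2.89% in all 4. In 982 regions (61.3%, beside 40.6% of all) at least 1 library of each condition had the call. The rule asked for both conditions, so the gap to 40.6% is not a finding either. Among regions that also met that demand the share was higher. It was 65.5% for constant LSD1-only regions away from gene ends and 76.6% for constant gene-end regions with STAT5A or HDAC3. The commonest pair was replicate 2 of both conditions with replicate 1 of neither, in 548 regions (34.2%, beside 18.1% of all). That pair was in 35.8% of constant gene-end regions with STAT5A or HDAC3. It was in 33.3% of constant LSD1-only regions away from gene ends, so it is not particular to gene ends or to LSD1 alone. With LSD1 replicate 2 without IL3 left out, so that replicate 1 stood in for the pooled list, 76 regions met the rule, and with LSD1 replicate 2 with IL3 left out, 580 did.

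**Figure D1:**
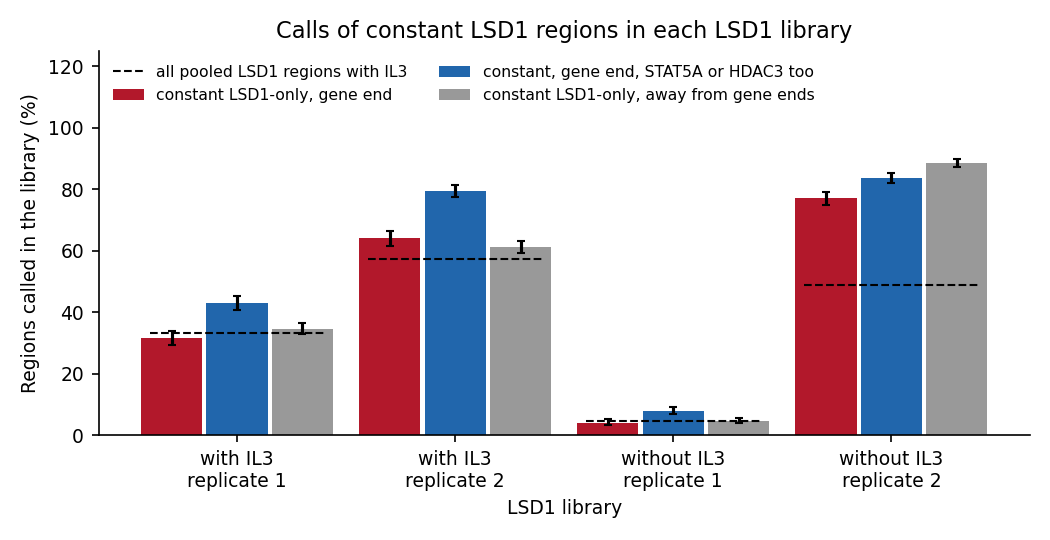
Percent of regions called in each of the 4 LSD1 libraries, for constant LSD1-only regions at gene ends (red), constant regions at gene ends that also had STAT5A or HDAC3 (blue) and constant LSD1-only regions away from gene ends (grey). Bars are shares with 95% Wilson intervals and dashed lines the share of all 17087 pooled LSD1 regions with IL3; the red bars are at 31.6%, 64.1%, 4.12% and 77.0%.

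The words LSD1-only hold for the pooled lists by construction and less so for single libraries. A STAT5A replicate list held 225 of the 1603 regions (14.0%), and an HDAC3 replicate list held 6 (0.374%). STAT5A replicate 2 of either condition held 201, and replicate 1 of either condition held 25. With IL3, replicate 1 of STAT5A held 1.43% of the regions and replicate 2 held 7.92%, where 19.97% and 18.8% of all pooled LSD1 regions were called. Without IL3 these shares were 0.125% and 5.49%, beside 1.20% and 13.6%. The rule removed pooled STAT5A and HDAC3 calls, so the low shares follow from it in part. In HDAC3 the regions were called in 0.0624% and 0% with IL3 (0 of 1603 allows up to 0.239% by the Wilson interval) and in 0.250% and 0.0624% without, where all pooled LSD1 regions were called in 3.03% and 0.269% with IL3 and in 6.84% and 1.66% without. A pooled STAT5A region also lay close by some of the regions without touching. Its centre was within 1 kb of 27.4% of the regions with IL3 and of 20.1% without IL3. The shares were 14.2% and 6.06% for the 2424 constant LSD1-only regions away from gene ends. For all 6975 LSD1 regions at gene ends they were higher, 46.9% with IL3 and 38.7% without. The rule removed regions that touch STAT5A, so the lower shares beside all gene-end regions follow from it in part.

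Scores were modest. In the pooled list with IL3 they ran from 7.7 to 87.3 with a median of 16.7 (quartiles 14.1 and 20.5), where the median of all 17092 regions of the list was 15.4 and its highest 408.1. In the pooled list without IL3 they ran from 15.2 to 98.9 with a median of 25.4, the same as the median of that whole list. The order of the regions was partly shared: the Spearman correlation of the pooled scores with and without IL3 was 0.525 over the 1603 regions, and that of replicate 2 with and without IL3 was 0.542 over the 821 regions called in both. Both are descriptions across regions, which share libraries and were chosen for being in both lists. Of the 160 highest regions of each ranking, 96 (60.0%) were the same regions.

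The highest score with IL3 was at Gadd45a, a stress gene that slows the cell cycle after DNA damage. Its region was centred 14 bp upstream of the 5′ end. It scored 86.7 and 90.6 in replicates 1 and 2 with IL3 and 94.5 in replicate 2 without IL3, and it was not called in replicate 1 without IL3. The region at Map3k3, a kinase that feeds MAP kinase pathways, was centred 359 bp upstream (chr11:106084143-106084313) and was called in every LSD1 library. It scored 44.6 and 114.6 with IL3 and 90.7 and 97.5 without IL3. Its pooled scores were 79.6 with IL3 and 98.9 without, and 98.9 was the highest of all constant LSD1-only regions without IL3. Both genes thus had high scores in each condition in the libraries that called them.

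Other regions among the 20 with the highest scores lay at genes of varied function. Arl6ip5, which encodes a membrane protein of the endoplasmic reticulum, had pooled scores of 66.7 with IL3 and 50.7 without. Gigyf1, which takes part in translational repression, had 61.6 with IL3 and 76.1 without, in a region 154 bp upstream of its 5′ end. Pcx, the gene of pyruvate carboxylase, had 60.3 with IL3 and 73.5 without and was called in all 4 libraries, at 52.0 and 74.6 with IL3 and at 60.5 and 85.3 without. Its 60.5, in replicate 1 without IL3, is the lowest score of that list. Pik3cd, the gene of the PI3-kinase catalytic subunit p110 delta, had 53.9 with IL3 and 63.4 without, 535 bp upstream. Xrn2, a nuclear exoribonuclease that helps end transcription, had 52.6 with IL3 and 86.2 without, 737 bp upstream. Rfx7, which encodes a member of the RFX family, had 50.1 with IL3 and 65.9 without. Mus81, a DNA endonuclease gene, had 48.8 with IL3 and 73.5 without and was called in replicate 2 of both conditions and in replicate 1 of neither.

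Regions called in all 4 LSD1 libraries are those with the most support. They included Map3k3 and Pcx above, the region near Brms1 and Rin1, Clock (a core circadian transcription factor), Mettl25, Ccdc124, Fam160b1, Mrps5 and Arid4a. Rin1, which encodes a RAS effector, scored 44.6 and 82.6 with IL3 and 90.7 and 51.8 without. Mrps5, of the mitochondrial ribosome, scored 27.2 and 58.6 with IL3 and 60.5 and 36.6 without. Clock scored 37.1 and 64.0 with IL3 and 90.7 and 67.0 without, and its region was also in the list of STAT5A replicate 2 without IL3. The first value without IL3 is in each case from replicate 1. There the constant LSD1-only regions ran from 60.5 (4 steps, the lowest of that list) to 121.0 (8 steps), so these scores stand for few steps.

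**Figure D2:**
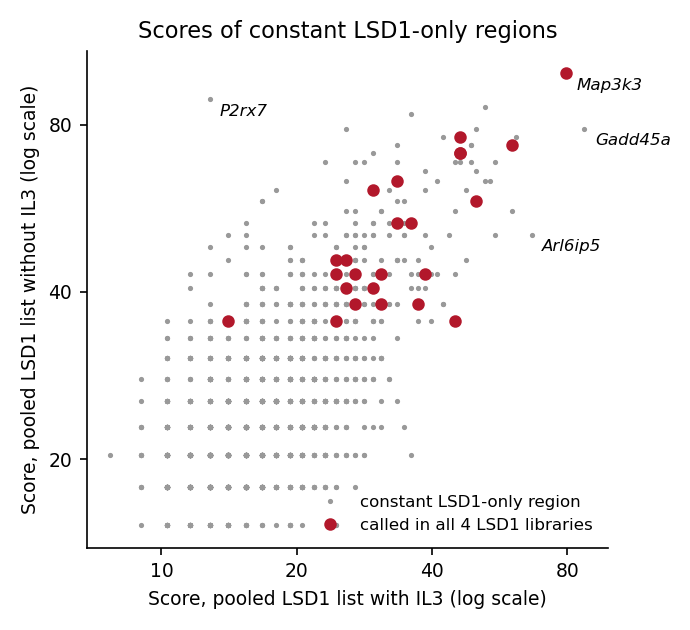
Score of each of the 1603 constant LSD1-only regions in the pooled LSD1 list with IL3 (x axis, log scale) and without IL3 (y axis, log scale); red points were called in all 4 LSD1 libraries. Gadd45a and Map3k3 are high on both axes, while P2rx7 is at 12.8 with IL3 and 88.8 without.

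A few regions ranked very differently in the 2 conditions although the rule calls them constant. P2rx7, the gene of an ATP-gated ion channel of immune cells, was 1218th of 1603 with IL3 (12.8) and the second without IL3 (88.8). Its replicate scores were 22.3 in replicate 1 with IL3 and 97.5 in replicate 2 without IL3, with no call in the other 2 libraries. Msi2, an RNA-binding protein gene of blood stem cells, was 1218th with IL3 (12.8) and 79th without IL3 (48.2). In the other direction, Wdr13 was 137th with IL3 (27.0) and 1312th without IL3 (17.8). Plxna3, a semaphorin receptor gene, was 47th with IL3 (35.9) and 1031st without (20.3). In these 4 cases no more than 1 library without IL3 held the region, so each rank without IL3 rests on 1 library or on the pooled list.

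The words gene ends proved to mean gene starts. The reference gave the strand for 17492 of 21887 protein-coding genes, and with it the nearest end of 1316 of the 1603 regions could be named. It was the 5′ end for 1273 (96.7%) and the 3′ end for 43 (3.27%). Among all LSD1 regions at gene ends the 5′ share was 96.1%, so it is not particular to the constant LSD1-only regions. The median position was 31 bp inside the gene, and the quartiles were 68 bp upstream and 228 bp downstream of the start, counted from the gene's bound. Of the 1273 regions, 40.4% were within 100 bp and 84.4% within 500 bp, against 47.8% and 87.8% of the 1414 constant regions at a 5′ end that also had STAT5A or HDAC3. The starts of 2 genes on opposite strands were within 1 kb of the region's centre in 12.3% of cases, beside 12.2% for all LSD1 regions at a 5′ end. Of the starts of all protein-coding genes, 10.3% had a start on the opposite strand within 1 kb. That is another measure, taken from the start and not from a region's centre. Regions with 2 genes within 1 kb included Helq with Mrps18c (19.3 with IL3, 25.4 without) and Ndufaf7 with Cebpz (20.5 with IL3, 25.4 without). The threshold itself had no visible gap: Arid4a at 999 bp and Msn at 993 bp were just inside, and regions at Mkln1 and Bach1, both at 1001 bp, just outside.

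**Figure D3:**
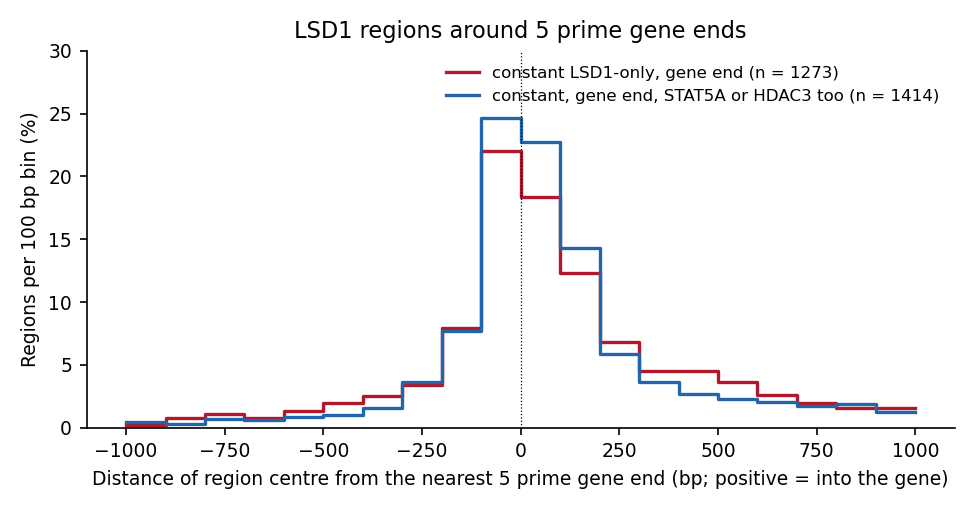
Share of regions in 100 bp bins by the distance of their centre from the nearest 5′ gene end (negative is upstream), for 1273 constant LSD1-only regions (red) and 1414 constant regions with STAT5A or HDAC3 (blue). Both peak in the bins on either side of the start; the medians are 31.0 and 33.5 bp inside the gene.

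The 1603 regions lay within 1 kb of an end of 1809 genes, which is 8.27% of protein-coding genes. Any pooled LSD1 region with IL3 was found at 31.1% of genes, and a constant region with STAT5A or HDAC3 at 9.31%. Genes with constant LSD1-only regions had a median length of 23696 bp, those with constant regions with STAT5A or HDAC3 23467 bp, and all protein-coding genes 17169 bp. No more than 2 of the regions lay at any gene, and 51 genes had 2, among them Erf (34.7 and 15.4 with IL3), which encodes an ETS-family repressor acting below ERK signalling, and Kcna3 (30.8 and 23.1), the gene of a lymphocyte potassium channel, whose second region lay 728 bp past its 3′ end. On chromosome X lay 2.12% of the regions, 1.86% of all LSD1 regions at gene ends and 4.41% of protein-coding genes.

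Counts over the gene lists are a description, with no test of their differences. A constant LSD1-only region was found at 10 of 40 proteasome genes, at 8 of 40 replication genes, at 24.1% of splicing factors (19 of 79), at 17.9% of translation initiation factors (10 of 56) and at 16.7% of mitochondrial ribosomal protein genes (13 of 78), beside 8.27% of all genes. These groups also had more LSD1 regions of any kind, between 55.0% and 73.4% of their genes beside 31.1%, so the shares are a description and show nothing particular to constant LSD1-only regions. Among proteasome genes, Psmb2 of the catalytic core had pooled scores of 25.7 with IL3 and 55.8 without, and was called at 40.0 in replicate 2 with IL3 and 60.9 in replicate 2 without. Among splicing factors, Srsf10 scored 27.2 and 37.3 with IL3 and 51.8 in replicate 2 without. Among initiation factors, Eif2b2 and Eif2b3, subunits of the exchange factor that recharges eIF2, had pooled scores of 35.9 and 27.0 with IL3, and of 40.6 and 27.9 without. Eif2s1, the eIF2 subunit whose phosphorylation slows translation under stress, had 29.5 with IL3 and 40.6 without, in a region it shares with Atp6v1d. Eif2ak3 (PERK), a kinase of that subunit which the name pattern placed in the same list, was called in all 4 LSD1 libraries and had 24.4 with IL3 and 35.5 without.

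Other housekeeping lists ranged on both sides of the background of 8.27%. Cytosolic ribosomal protein genes had a constant LSD1-only region in 5 of 91 cases (5.49%), although 48 of the 91 had some LSD1 region (52.7%, beside 31.1% of all genes). A constant region with STAT5A or HDAC3 was at 15 (16.5%, beside 9.31% of all genes). Rpl30 had the highest score of the 5, at 38.5 with IL3 and 40.6 without. Aminoacyl-tRNA synthetases gave 2 of 34 and RNA polymerase subunits 3 of 28. Respiratory chain genes gave 15 of 100, with assembly factors counted in, genes of ubiquitin conjugation and removal 14 of 93, DEAD and DEAH box helicases 9 of 53, Mediator subunits 4 of 30, DNA repair genes 4 of 35 and histone genes 2 of 14. Zinc finger protein genes gave 55 of 465 (11.8%) and solute carriers 33 of 375 (8.80%). None of 1465 olfactory and vomeronasal receptor genes and none of 61 keratin and other tissue genes had one, where 1 gene of each list had any LSD1 region.

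Of 22 genes of LSD1 and HDAC3 complexes, 5 had a constant LSD1-only region (22.7%, beside 8.27% of all genes). Any LSD1 region was found at 72.7% of the 22, beside 31.1% of all, and a constant one with STAT5A or HDAC3 at 7 (31.8%, beside 9.31%). So the count shows nothing particular to constant LSD1-only regions. Chd4, the ATPase of the NuRD complex, had the highest scores, 42.4 with IL3 and 76.1 without, in a region centred 11 bp upstream of its 5′ end. It was called in replicate 2 of both conditions (85.3 with IL3, 91.4 without) and in replicate 1 of neither, and it was also in the list of STAT5A replicate 2 with IL3. Phf21a, the CoREST-associated reader of unmethylated H3K4, had 39.8 with IL3 and 35.5 without, and scored 44.6 and 40.0 with IL3 and 75.6 in replicate 1 without. Rcor3, a paralogue of CoREST, had 24.4 with IL3 and 43.1 without, and was in the list of STAT5A replicate 2 with IL3 too. Zmym2, a zinc finger partner of LSD1, had 16.7 with IL3 and 22.8 without, and Mta3, a NuRD subunit, had 14.1 with IL3 and 22.8 without.

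Genes of the IL3 pathway and its response had regions with scores near the median of 16.7, or up to 28.2. Of 18 genes of the IL3 receptor and JAK-STAT list, 3 had one (16.7%, beside 8.27% of all genes), and 66.7% had any LSD1 region, beside 31.1% of all. The 3 were Ptpn11, the phosphatase SHP2 (19.3 with IL3, 20.3 without), Jak1 (15.4 with IL3, 17.8 without) and Stat5a itself (14.1 with IL3, 35.5 without). Of these, Ptpn11 was called in 3 LSD1 libraries, and Jak1 and Stat5a in replicate 2 without IL3 alone. Of 15 listed STAT5 targets 1 had one (6.67%, near the share of all genes), Pim2, a survival kinase gene (19.3 with IL3, 17.8 without). Of 18 immediate early genes Dusp1, Dusp6 and Egr1 had one (16.7%), and 61.1% of the 18 had any LSD1 region. Dusp1 and Dusp6, which encode phosphatases of MAP kinases, were each called in a single LSD1 library, and Egr1, a zinc finger factor induced by growth signals, in 3, at 22.3 and 18.7 with IL3 and 21.3 in replicate 2 without.

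Of 20 survival and apoptosis genes, Bad, Casp9 and Bax had a constant LSD1-only region (15.0%, beside 8.27% of all genes), and 4 had a constant region with STAT5A or HDAC3. Bad and Bax encode BCL2-family proteins and Casp9 a caspase, and the gene nearest to the Bad region was Gpr137. The higher-scoring of the 2 regions at Casp9 had 16.7 with IL3 and 40.6 without, and was called in replicate 2 of both conditions, at 26.6 with IL3 and 45.7 without. Of 21 cell cycle genes, Ccne1 (cyclin E1) had one (4.76%), and of 26 myeloid, mast and erythroid genes, Hhex, Cebpb and Cebpe (11.5%). Hhex, a homeobox gene of early blood development, had 29.5 with IL3 and 43.1 without. In the B lineage list 0 of 16 genes had a constant LSD1-only region and 1 had any LSD1 region (6.25%, below the 31.1% of all genes). With 16 genes, 0 is near the 8.27% of all genes.

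**Figure D4:**
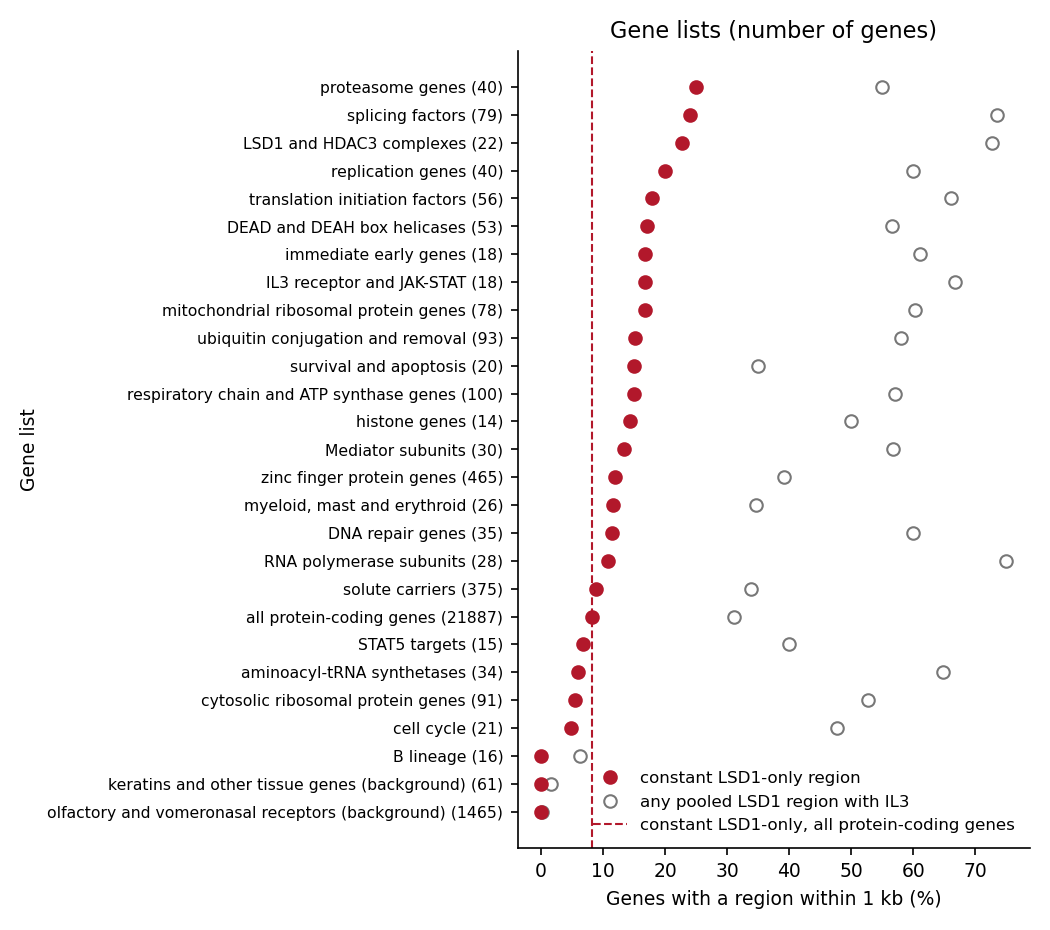
Percent of the genes of each list that have a constant LSD1-only region within 1 kb of an end (red), and any pooled LSD1 region with IL3 (open circles); the dashed line is the red share over all protein-coding genes, 8.27%. Proteasome genes (10 of 40) and splicing factors (24.1%) are at the top and olfactory receptors at 0.

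Compared with the 2424 constant LSD1-only regions away from gene ends, those at gene ends did not differ in score beyond the spread between libraries. The ratio of the median scores was -0.17 and 0 on the log2 scale in replicates 1 and 2 with IL3, and 0 and -0.29 without. Its mean was -0.12 ± 0.14 (SD, n = 4 libraries; two-sided exact sign-flip permutation p 0.5, adjusted 0.762 over 8 tests). The difference in the share called was -3.09 and 2.76 percentage points with IL3, and -0.54 and -11.7 points without, so the libraries did not share a direction. Its mean difference was -3.14 ± 6.18 points (SD, n = 4; two-sided exact sign-flip permutation p 0.375, adjusted 0.75). With 4 libraries the smallest p this test can give is 0.125, so it could not pass 0.05, and a p above it does not show that the classes are alike. Neither difference moved with IL3 beyond the spread: with IL3 minus without was 0.06 on the log2 scale (two-sided exact permutation p 1) and 5.95 points (p 0.667, where the smallest p of 2 against 2 libraries is 0.333).

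Beside the 1802 constant regions at gene ends that also had STAT5A or HDAC3, a comparison added after seeing the data, the constant LSD1-only regions were called less often in every library. The shares were 31.6% and 64.1% with IL3 against 43.1% and 79.5%, and 4.12% and 77.0% without IL3 against 7.99% and 83.8%. The mean difference was -9.40 ± 5.09 points (SD, n = 4; lower in 4 of 4 libraries; two-sided exact sign-flip permutation p 0.125, the smallest possible, adjusted 0.75). The log2 ratio of median scores was -0.12 ± 0.08 (SD, n = 4; exact sign-flip permutation p 0.25, adjusted 0.75). STAT5A and HDAC3 calls chose these classes, and the LSD1 libraries are part of the pooled lists that the rule used. The median pooled score with IL3 was 16.7 for constant LSD1-only regions and 19.3 for the others. So the lower share may not be read as independent of the rule, and these p-values give it no independent support.

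The starts that carried the regions were rich in CpG. In the RefSeq promoter windows of 1244 genes whose 5′ end was nearest to a region, the median G+C content was 63.0% and the median ratio of observed to expected CpG 0.813, beside 56.3% and 0.577 for all 17492 promoters. The ratio was 0.6 or more in 83.0% of the windows, in 82.4% of those with constant regions that also had STAT5A or HDAC3, and in 48.4% of all. ETS letters (ACTTCCGG) were in 9.49% of the 1244 windows and in 5.28% of all, SP and KLF letters (GGGGCGGGG) in 26.0% and 15.5%, and the CRE in 4.82% and 2.33%. E-box letters (CACGTG) were in 11.01% and 7.91%, NRF1 letters (GCGCATGC) in 5.23% and 3.61% and YY1 letters (AAGATGGC) in 5.95% and 3.21%. CCAAT, the letters of NFY, was in 38.2% and 39.2%. In windows with constant regions that also had STAT5A or HDAC3, ETS letters were in 11.1%, SP and KLF letters in 25.4% and the CRE in 3.31%. E-box letters were in 10.9% of those windows, NRF1 letters in 6.90%, YY1 letters in 4.67% and CCAAT in 34.6%. All of these but CCAAT were above the share of all promoters there too, so this is not particular to constant LSD1-only regions.

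Letters of the factors usually named beside LSD1 and STAT5A in blood were rarer than in all promoters. The STAT letters TTCNNNGAA were in 4.90% of the 1244 windows against 7.78% of all, the GFI1 core AAATCA in 7.23% against 13.0%, AGATAA of GATA factors in 4.34% against 9.94%, TGTGGT of RUNX factors in 11.6% against 15.1% and TATAAA in 5.31% against 13.3%. Windows with constant regions that also had STAT5A or HDAC3 had similar shares, with STAT letters in 5.97%, the GFI1 core in 6.90% and GATA letters in 5.75%. Inside the regions read whole, STAT letters were in 4 of the 325 constant LSD1-only regions (1.23%), in 2.63% of the 457 with STAT5A or HDAC3 and in 3.37% of 445 gene-end LSD1 regions called with IL3 only, beside 4.32% of the same stretch of all promoters. The GFI1 core was in 12 of the 325 (3.69%), in 1.31% of the 457 and in 1.35% of the 445, beside 7.52% of all promoters. All motifs were counted on both strands, and matches may overlap one another. Base composition differs between the sets of windows, and its part in these shares was not tested.

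The X-box letters were picked after the sequences of the regions were seen. GTTGCNNNG, the X-box letters capitalised in the Pick1 to Hsph1 sequences above, was found in 63 of the 325 regions read whole (19.4%). It was in 15.1% of 457 constant gene-end regions that also had STAT5A or HDAC3, in 6.74% of 445 gene-end LSD1 regions called with IL3 only, and in 8.42% of the same stretch of all 17492 promoters. The share followed the score: in 5 groups of 65 regions, ordered by pooled score with IL3 with the highest first, it was 41.5%, 21.5%, 9.23%, 13.8% and 10.8%. The constant regions with STAT5A or HDAC3 gave 28.6% in the highest of 5 such groups and 10.99% in the lowest, and gene-end regions called with IL3 only gave 6.74% in the highest and 5.62% in the lowest. Matches numbered 1.44 per kb inside the 325 regions and 0.739 per kb in the rest of the same windows. Of the 80 inside, 59 (73.8%) were within 50 bp of the region's centre, a stretch that is already 101 of the region's 171 bases. For the other letters this share ran between 39.1% (RUNX) and 94.1% (CRE), with 67.0% for SP and KLF letters. The higher density inside was not particular to the X-box: SP and KLF letters had 1.91 per kb inside and 0.954 outside, and the CRE 0.306 inside and 0.119 outside. As the letters were picked on these regions, no test is given.

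The X-box letters differed between the LSD1 replicates with IL3, and without IL3 they pointed the same way on few regions of replicate 1. In the central 101 bases of every promoter region of each library, they were in 88 of the 326 highest-scoring in LSD1 replicate 2 with IL3 (27.0%) and in 82 of the 378 highest-scoring in LSD1 replicate 2 without IL3 (21.7%), in each case the first of 5 equal groups by score. In LSD1 replicate 1 they were in 4.90% with IL3 (7 of 143) and in 0 of 20 without IL3, beside 4.76% of the same stretch of all promoters. Replicate 1 without IL3 had 102 promoter regions in all, 3 of them with the letters, so its 0 of 20 does not establish a difference. In STAT5A replicate 2 the letters were in 3.50% with IL3 and 5.15% without, and in STAT5A replicate 1 in 7.21% with IL3 (8 of 111). The HDAC3 libraries had 85 such regions or fewer. Their highest groups gave 0 of 6 and 0 of 1 with IL3, and 1 of 17 and 1 of 4 without. STAT5A replicate 1 without IL3, at 0 of 6, was as small, and groups of this size are not read here. Among the constant LSD1-only regions, of those called in replicate 2 with IL3, 41 of the 108 higher-scoring had the letters (37.96%) and 16 of the 109 lower-scoring (14.7%), and without IL3 43 of 128 (33.6%) and 14 of 129 (10.9%). In replicate 1 with IL3 it was 9 of the 49 higher-scoring (18.4%) and 7 of the 50 lower-scoring (14.0%), and in replicate 1 without IL3 1 of 7 and 0 of 7. As examples, picked for carrying the letters, Tmx4 scored 85.3 in replicate 2 with IL3 and 88.4 in replicate 2 without, Zfp523 scored 74.6 in replicate 2 with IL3, and neither was called in a replicate 1, while Map4k2, which has the letters too, was called in all 4 libraries. Pick1 scored 19.8 and 61.3 with IL3 and 70.1 in replicate 2 without. What differed between replicates 1 and 2 is not given in the sources used here and its part in this pattern was not tested.

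**Figure D5:**
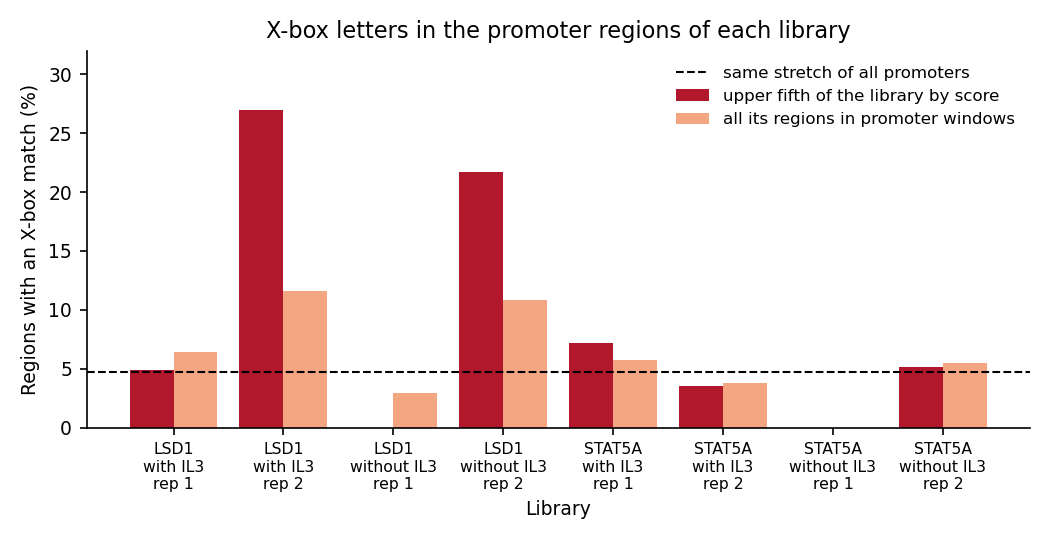
Percent of regions with the X-box letters GTTGCNNNG in their central 101 bases, for all regions of each LSD1 and STAT5A library that lie in a promoter window (pale) and for the first of 5 equal groups by score (red); the dashed line is the share in all promoters, 4.76%. The red bars reach 27.0% and 21.7% in LSD1 replicate 2 with and without IL3, and stay at or below 7.21% in the other libraries shown. The red group holds only 20 regions in LSD1 replicate 1 without IL3 and 6 in STAT5A replicate 1 without IL3. The HDAC3 libraries, with 85 such regions or fewer, are not shown.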

How the data were processed

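Region lists were deposited for 12 chromatin immunoprecipitation libraries and for 6 pooled groups. Per the submitters' processing notes, Trimmomatic 0.30, Bowtie2 2.1.0, Picard 1.92, HOMER 4.8 and the build mm10 were used; their settings were not stated in the sources used here. Each list holds positions of 1 width and the authors' deposited score, whose definition is not given. Replicates are biological, per the labels.

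Overlap, distance to gene bounds, shares with Wilson intervals and exact permutation tests over libraries were computed with python 3.11.15, numpy 2.4.6, pandas 2.3.3 and scipy 1.17.1. The overlap and gene-end rules were tested on simulated regions with known classes. The Wilson intervals and the permutation tests reported here were not run on simulated data. P-values were adjusted by Benjamini-Hochberg over 8 tests. Gene positions, strands and promoter letters came from RefSeq tables in GRCm38.p6 coordinates. The strand was known only for genes with a promoter entry. The regions and gene lists were chosen with earlier results of these data known. Genes were named by rank of score, within each of 26 lists, among genes with 2 regions, among regions in all 4 LSD1 lists and among those in other replicate lists, and by nearness to 1 kb. Msi2, Wdr13, Plxna3, Helq, Ndufaf7, Tmem237, Map4k2 and the regions printed for the X-box were named after their values were seen, as were the X-box letters and the ciliary list. Intervals cover counting error only.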

Additional observations from a re-analysis of the deposited data

How the results depend on the processing

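The count of 1603 regions was 1036 in the upper 50% of the pooled list by score. In alternatives chosen after seeing the data it was 955 with no STAT5A or HDAC3 centre within 1 kb, and 982 with a call in a replicate list of each condition. Leaving out 1 library at a time it ran between 76 (without LSD1 replicate 2 without IL3) and 2094 (without STAT5A replicate 2 without IL3). The gene-end share, 39.8%, was 37.7% with an overlap of 50% of the shorter region, 33.2% at 500 bp, 46.7% at 2 kb, 41.4% in the upper 50% by score, 33.1% with no STAT5A or HDAC3 centre within 1 kb, and between 35.6% and 44.1% with 1 library left out. The share with an annotated start within 1 kb, 79.4%, was 70.9% within 500 bp. The share in all 4 LSD1 lists, 1.50%, was 2.22% in the upper 50% by score; with 1 library left out it ran between 1.34% and 40.8%, since 3 lists were then required where an LSD1 library was dropped. The difference in percent called from regions away from gene ends, -3.14 points, reversed to 1.02 without LSD1 replicate 1 without IL3 and ran between -8.04 and 1.02; the cause was not tested. The log2 score ratio stayed between -0.18 and -0.05 under 19 alternatives. Median scores move in whole steps, and each alternative that left out a STAT5A or HDAC3 library returned the main value of -0.12. The narrow range is therefore no independent sign of stability. With the replicate number as a block, the difference between conditions was 0.06 on the log2 scale (exact permutation p 1) and 5.95 points (exact permutation p 1); without the block the differences were the same and p was 1 and 0.667. The labels do not say that a replicate number marks a shared batch. The call differences between replicates 2 and 1 in the 2 conditions correlated at 0.039 over the 1603 regions. LSD1 replicate 1 without IL3 held 4.12% of these regions, and the rule asked for a call in both conditions. So this correlation cannot tell whether a number marks a shared batch. Both LSD1 libraries numbered 2 had the X-box letters often in their highest-scoring regions, and whether the number marks shared material was not tested. The X-box share, 19.4%, was 15.0% in the central 101 bases.

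LSD1 replicate 1 without IL3 has the shortest LSD1 list, and read depth is not given in the files. There the lowest score of a constant LSD1-only region was 60.5, or 4 steps, and a region missing there cannot be taken as unbound. Letters were read for 20.3% of the regions, all close to a start, so they do not speak for the rest. The tests rest on 4 libraries and could not pass 0.05.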

Other observations

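The X-box is known as a promoter element of genes of cilia and of antigen presentation. A list of ciliary genes, drawn up after the letters were seen, had a constant LSD1-only region at 23 of 131 genes (17.6%, beside 8.27% of all) and any LSD1 region at 50 (38.2%, beside 31.1%). The 23 included Bbs1, Bbs5 and Bbs12 of the BBSome and its chaperones, the intraflagellar transport genes Ift20, Ift22 and Ift57, the transition zone genes Cep290, B9d2, Tmem107 and Tmem237, and Rfx7. Tmem237 had the letters in its region and scored 24.8 and 40.0 with IL3 and 36.6 in replicate 2 without. Chosen with these results known, the list is a description.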
